A study of Homo sapiens with 6 samples.

Results

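The amino acid transporters described here are 35 genes of the solute carrier (SLC) families that move amino acids across the plasma membrane, the lysosomal membrane or the inner mitochondrial membrane. They were chosen by name, as the probe sets that the platform annotation gives to 1 gene symbol on a fixed list, and each gene was taken as the mean of its probe sets. All 35 were found, with 115 probe sets, among 18132 genes and 49395 probe sets on the array. RNA came from TPC-1 cells, a long-established line from a human papillary carcinoma of the thyroid, kept in RPMI1640 with serum. The cells received lentivirus carrying either a control shRNA (3 samples) or an shRNA against SHCBP1 (3 samples), and each sample was hybridised to 1 Affymetrix array. The extraction text of the labels names DLD1, a colorectal carcinoma line, in place of TPC-1, and the values hold no expression levels against which thyroid or intestinal markers could be checked. The labels name 1 shRNA construct for SHCBP1, no rescue and no time after infection, and do not say that samples were separate cultures, so each p-value rests on the spread among these samples only, and that spread may be technical. RNA per cell and the makeup of the culture cannot be told apart in such bulk samples.

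Cells import amino acids through exchangers, sodium-coupled carriers and facilitators that differ in substrate and location. Several exchangers of the SLC7 family are light chains that reach the membrane only when joined by a disulfide bond to a heavy chain, SLC3A2 or SLC3A1. Many plasma membrane carriers are known as targets of ATF4, the transcription factor that cells induce when amino acids run short, while carriers on the lysosome release amino acids from degraded protein and take part in their sensing by the kinase complex mTORC1. In carcinoma cells SLC7A5, SLC7A11 and SLC1A5 are known for the uptake of leucine, cystine and glutamine.

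The deposited values are on a log2 scale, and the median of every probe set across all 6 arrays is 0. A value therefore says how far an array lay from that median and nothing of how much RNA there was. SHCBP1 itself (Entrez Gene 79801) had centred log2 values of 0.72, 0.76 and 0.71 in the control arrays against -0.95, -0.76 and -0.72 in the 3 arrays with its shRNA. The groups did not overlap, and the fall was 2.91-fold, so these are called the knockdown arrays below. The poly-A spike-in transcripts, which are added to the RNA, gave more signal with the SHCBP1 shRNA, by 0.46 ± 0.046 log2 (SE, n = 3 arrays per group). So did the probe set at the 5′ end of 28S rRNA, by 2.80 ± 0.035 (SE), but the one at its 3′ end by only 0.30 ± 0.060. The hybridisation spike-ins differed by 0.083 ± 0.010 (SE). Scaling to the poly-A spike-ins lowers every gene by 0.46 and gives 363 genes higher and 16515 lower in place of 3992 and 3448. It moves the transporters from 8 higher and 15 lower to 0 higher and 30 lower. Every rise and fall below is thus relative to other genes. The spike-in scaled value stands beside the rise of each named gene past the threshold with all arrays and probe sets. The part of these control signals in the results was not tested.

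Of the 35 transporter genes, 15 fell and 8 rose in the knockdown arrays and 12 did not pass the threshold, an adjusted p under 0.05 in limma's moderated test with Benjamini-Hochberg adjustment over all 18132 genes. In share, 42.9% of the transporters fell against 19.0% of all genes tested. For rises it was 22.9% against 22.0%, so the share that rose was near the background. The list was chosen with earlier results of these data known, so its share of falls is no independent evidence about amino acid transporters. Among 28 further amino acid transporters tested, 10.7% fell and 14.3% rose. Among the 35 genes, the 3 values of one group lay wholly above the 3 of the other in the same 8 and 15. Of all genes, 27.3% (higher) and 22.7% (lower) were apart in this way. At least 2-fold falls were seen for 2 transporters, SLC43A1 and SLC7A11, and at least 2-fold rises for 0, where 0.904% and 0.314% of all genes moved that far. The median change over the 35 genes was -0.0017 on the log2 scale against 0.022 over all genes, while the median size without sign was 0.22 against 0.11.

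**Figure D1:**
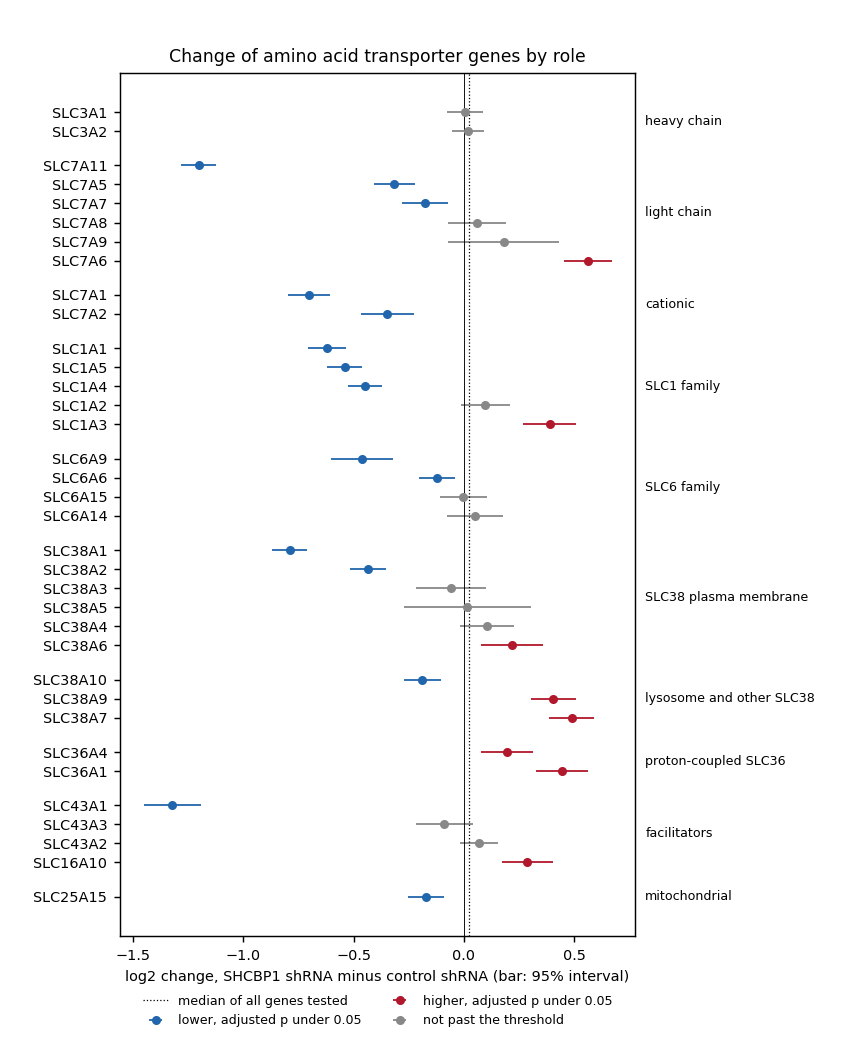
Change of each of the 35 genes on the log2 scale (SHCBP1 shRNA minus control shRNA, x axis), grouped by role, with the 95% confidence interval of limma as a bar and the median of all 18132 genes as a dotted line. SLC43A1 (-1.32) and SLC7A11 (-1.20) lie farthest to the left, SLC7A6 (0.56) and SLC38A7 (0.49) farthest to the right, and the heavy chains at 0.0049 and 0.019; with scaling to the spike-ins all points would move left by 0.46.

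Sequence around the start sites is shown for members that hold 1 of 2 short motifs. The motifs were chosen after the values were seen, because they are the known contact sites of ATF4 with its partners and of lysosomal gene activators. The RefSeq promoter table (GRCh38.p14) covers 250 bases before to 50 after each annotated start and matched 27 of the 35 genes. The other 8 had no window and were not searched: SLC1A2, SLC3A1, SLC6A6, SLC6A15, SLC7A2, SLC7A11, SLC38A3 and SLC43A3. The core of the amino acid response element, TGATGNAA on either strand, is found in the windows of 6 of these 27 genes (22.2%) and of 4.46% of all 27305 genes in the table (3.62% of 35116 windows). For both motifs, a gene with more windows has more chances of a match, and windows per gene were not evened out. Each is printed on the strand of the gene over 30 bases, with the motif or its reverse complement in capitals.
SLC1A5 (chr19:46784893-46784922, minus strand): gaggaagtggcTGATGCAAgctgtccaggg
SLC1A4 (chr2:64989381-64989410, plus strand): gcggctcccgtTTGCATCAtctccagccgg
SLC38A1 (chr12:46266502-46266531, minus strand): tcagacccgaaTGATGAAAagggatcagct
SLC7A1 (chr13:29595663-29595692, minus strand): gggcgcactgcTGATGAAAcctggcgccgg
SLC3A2 (chr11:62881719-62881748, plus strand): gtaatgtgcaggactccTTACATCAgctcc
SLC1A3 (chr5:36596357-36596386, plus strand): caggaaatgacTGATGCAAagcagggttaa
The matches lie 97 bases before the start for SLC1A5 (in 1 of its 3 windows), 7 before for SLC1A4 (1 of 2), 4 before for SLC38A1 (1 of 2) and 220 before for SLC1A3 (1 of 3), and at bases 8 and 38 after the start for SLC7A1 (1 window) and SLC3A2 (1 of 3). Of these 6 genes 4 fell (SLC1A5, SLC1A4, SLC38A1, SLC7A1), SLC3A2 did not pass the threshold and SLC1A3 rose by 0.39 log2 (-0.074 with scaling to the spike-ins). Of all 27 members with a window, 12 fell and 8 rose, and of all genes tested 19.0% fell and 22.0% rose. A match is a string of letters and not a measured binding site.

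The E-box CACGTG, which reads the same on both strands, is found in the windows of 8 of the 27 genes (29.6%) and of 8.77% of all genes in the table (7.26% of windows). SLC36A1 and SLC38A7 are shown, with the E-box in capitals, as carriers known from the lysosome, and the windows of SLC38A9, also known from there, hold no E-box. The sequences of the other genes with an E-box, among them the 4 that fell, are not printed.
SLC36A1 (chr5:151447548-151447577, plus strand): cgctcaagggagCACGTGacctcggcctct
SLC36A1 (chr5:151447583-151447612, plus strand): gggcggtgggatCACGTGatgaggtccgga
SLC38A7 (chr16:58684739-58684768, minus strand): gtgatgcatgctCACGTGtctccgcagccg
The E-boxes of SLC36A1 begin 43 and 8 bases before the same start, and that of SLC38A7 at base 15 after it. Of the 8 genes with an E-box, 4 fell (SLC1A5, SLC7A5, SLC7A7, SLC43A1), 2 rose with the deposited scaling (at -0.017 and 0.025 with scaling to the spike-ins) and 2 did not pass the threshold (SLC7A8, SLC38A5). These shares are near those of all 27 members with a window, of which 12 fell and 8 rose. Of all genes tested, 19.0% fell and 22.0% rose.

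The light chain SLC7A11 (Entrez Gene 23657), which takes up cystine in exchange for glutamate, had centred log2 values of 0.65, 0.60 and 0.58 in the control arrays against -0.60, -0.57 and -0.59 in the knockdown arrays. The arrays of each group lay close together and far from the other group. The change was -1.20 ± 0.034 log2 (SE, n = 3 per group), a 2.30-fold fall with an adjusted p of 6.47e-07 in limma, and 90 of the 18132 genes had a lower value. All 3 probe sets of SLC7A11 fell, with log2 changes of -1.55, -1.43 and -0.63.

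Its partner, the heavy chain SLC3A2 (Entrez Gene 6520) on the cell surface, did not pass the threshold. Its values were -0.0057, -0.028 and 0.013 in the control arrays against 0.022, -0.00069 and 0.014 in the knockdown arrays, and the groups overlapped. The change of 0.019 ± 0.031 log2 (SE) had a 95% confidence interval of -0.055 to 0.092, and the 7 probe sets gave -0.013 to 0.057. That interval holds no change as large as that of any of the 23 transporters past the threshold. SLC3A1, the heavy chain that pairs with SLC7A9 in kidney and gut, likewise changed by 0.0049 (interval -0.076 to 0.086), although 1 of its 5 probe sets passed with 0.14. With scaling to the spike-ins SLC3A2 and SLC3A1 would be lower by 0.45 and 0.46.

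SLC7A5 (Entrez Gene 8140), the exchanger for leucine and other large neutral amino acids, fell by 0.32 ± 0.040 log2 (SE, adjusted p = 0.000459 in limma). The values were 0.24, 0.12 and 0.19 in the control arrays against -0.12, -0.13 and -0.15 in the knockdown arrays. The groups were apart, but the fall was small beside that of SLC7A11, and of its 2 probe sets 1 passed (-0.48) and 1, with a name ending in _s_at, did not (-0.15). SLC7A6 and SLC7A7 encode exchangers that carry cationic amino acids out and neutral ones in, and they moved in opposite directions. SLC7A6 rose from -0.27, -0.38 and -0.23 in the control arrays to 0.30, 0.26 and 0.25, a change of 0.56 ± 0.046 log2 (SE, adjusted p = 5.21e-05 in limma), which is the largest rise among the 35 genes and is 0.097 with scaling to the spike-ins, not past the threshold there. All 3 of its probe sets rose, by 0.31 to 0.94. SLC7A7, measured by 1 probe set, had 0.18, 0.051 and 0.075 in the control arrays against -0.062, -0.11 and -0.051 in the knockdown arrays and fell by 0.18 (adjusted p = 0.0143 in limma), a call that was lost without SHCBP1 shRNA replicate 2 (adjusted p = 0.0502 in limma). The other 2 light chains, SLC7A8 for small and large neutral amino acids (0.060, interval -0.073 to 0.19) and SLC7A9 for cystine and cationic amino acids (0.18, interval -0.071 to 0.43), did not pass. The arrays of SLC7A9 spread widely, from -0.093 to 0.34 with the SHCBP1 shRNA, and without replicate 2 of that group its value of 0.29 passed (adjusted p = 0.0366 in limma).

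**Figure D2:**
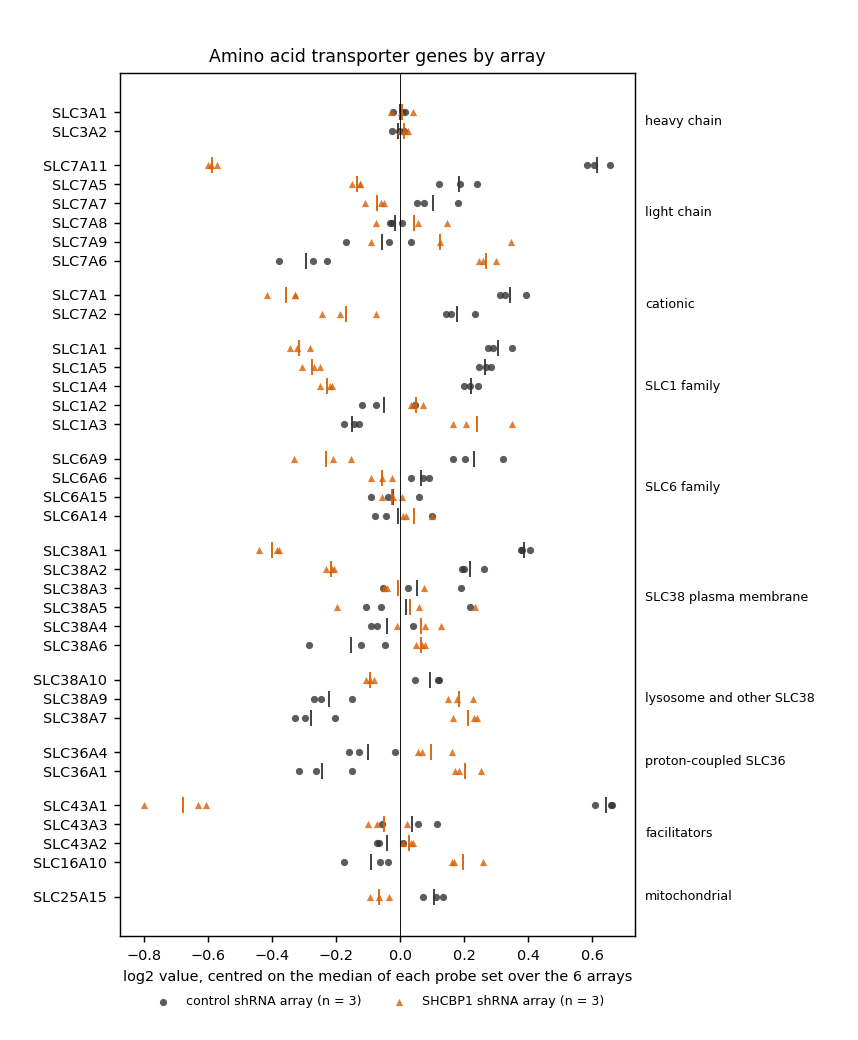
Centred log2 value of each gene (x axis) in the 3 control arrays (black circles) and the 3 SHCBP1 shRNA arrays (orange triangles), with each group's mean as a tick, grouped by role. Groups are far apart for SLC7A11, SLC43A1, SLC38A1 and SLC7A1 and overlap for SLC3A1 and SLC3A2; a position shows the distance from the median of 6 arrays and no level of RNA.

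The cationic carriers SLC7A1 and SLC7A2, which import arginine, lysine and ornithine without a heavy chain, both fell. SLC7A1 (Entrez Gene 6541), whose RNA is known to be induced on amino acid shortage, had 0.33, 0.31 and 0.39 in the control arrays against -0.33, -0.33 and -0.42 in the knockdown arrays. These groups stood well apart, and the change was -0.70 ± 0.041 log2 (SE, 1.63-fold lower, adjusted p = 1.04e-05 in limma). Its probe sets ran from -0.99 to -0.24, and 3 of 4 passed. SLC7A2 fell by 0.35 ± 0.051 (SE), from 0.14, 0.16 and 0.23 to -0.25, -0.19 and -0.078. Here 3 probe sets fell while the fourth, at 0.22, had the other sign and did not pass.

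Among the SLC1 carriers 3 fell and 1 rose. SLC1A5 (Entrez Gene 6510), the sodium-dependent exchanger through which many carcinoma cells take up glutamine, had 0.28, 0.24 and 0.27 in the control arrays against -0.25, -0.27 and -0.31 in the knockdown arrays. The groups did not overlap, and its 3 probe sets fell by nearly the same amount, -0.54 to -0.53 (gene value -0.54 ± 0.033, SE, adjusted p = 1.3e-05 in limma). SLC1A4, the related exchanger for alanine, serine and cysteine, fell by 0.45 ± 0.033 (SE), with 0.20, 0.24 and 0.22 against -0.21, -0.22 and -0.25. Its 6 probe sets disagreed in size, from -1.001 to -0.11, and 4 passed. SLC1A1, a carrier of glutamate, aspartate and cysteine, fell by 0.62 ± 0.037 (SE, adjusted p = 1.09e-05 in limma), from 0.29, 0.27 and 0.35 to -0.34, -0.28 and -0.32, with both probe sets lower. Of the glutamate carriers known best from glia, SLC1A3 rose by 0.39 ± 0.052 (SE, adjusted p = 0.000609 in limma, -0.074 with scaling to the spike-ins), with all 5 probe sets higher, and SLC1A2, at 0.098 (interval -0.015 to 0.21), did not pass. The values of SLC1A3 were -0.15, -0.13 and -0.18 in the control arrays against 0.35, 0.17 and 0.20 in the knockdown arrays, of which replicate 1 lay highest. SLC1A2 passed in 1 leave-one-out fit, without control replicate 3 (0.15, adjusted p = 0.0237 in limma).

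Of the sodium- and chloride-coupled SLC6 carriers, the glycine transporter SLC6A9 fell by 0.46 ± 0.060 log2 (SE, adjusted p = 0.000523 in limma). Its arrays read 0.32, 0.20 and 0.17 with the control shRNA and -0.16, -0.21 and -0.33 with the SHCBP1 shRNA. They did not overlap, and all 7 probe sets were below 0 (-0.85 to -0.15), 6 of them past the threshold. The taurine transporter SLC6A6 fell by 0.12 (adjusted p = 0.0261 in limma), but this rested on 1 of 5 probe sets (-0.60) while another rose (0.14). Its call was lost with the median of the probe sets (-0.058, adjusted p = 0.325 in limma) and without control replicate 2 or 3 or SHCBP1 shRNA replicate 1 or 2 (adjusted p 0.0648 to 0.0878 in limma). SLC6A14, which takes up neutral and cationic amino acids, and SLC6A15, which prefers branched-chain ones, changed by 0.050 and -0.0017 and did not pass.

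The SLC38 genes of the plasma membrane encode sodium-coupled carriers of glutamine, alanine and other small neutral amino acids. SLC38A1 (Entrez Gene 81539) showed the third largest fall of the 35 genes, with 0.41, 0.38 and 0.38 in the control arrays against -0.38, -0.44 and -0.39 in the knockdown arrays. Each group spanned a narrow range, and the change was -0.79 ± 0.034 log2 (SE, 1.73-fold lower, adjusted p = 2.55e-06 in limma). All 5 probe sets passed, from -1.25 to -0.59. SLC38A2 (Entrez Gene 54407), the member whose transcription and uptake are known to rise when amino acids are withdrawn, fell by 0.44 ± 0.035 (SE), from 0.20, 0.19 and 0.26 to -0.23, -0.21 and -0.21, and its 3 probe sets were alike (-0.49 to -0.40). SLC38A4, which lies next to SLC38A2 on chromosome 12 in the RefSeq order, as SLC38A1 does on its other side, was at 0.11 (interval -0.016 to 0.23) and did not pass. SLC38A3 and SLC38A5, which also move glutamine and histidine with proton exchange, changed by -0.059 and 0.015, and the interval of SLC38A5, from 1 probe set, was wide (-0.27 to 0.30). The less studied SLC38A6, also with 1 probe set, rose by 0.22 (adjusted p = 0.0221 in limma, -0.25 with scaling to the spike-ins), and that call was lost without SHCBP1 shRNA replicate 2 or 3 (adjusted p = 0.0573 and 0.0606 in limma).

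Both SLC38 carriers known from the lysosome rose relative to other genes. SLC38A7 (Entrez Gene 55238), which exports glutamine and asparagine from lysosomes, had -0.21, -0.33 and -0.30 in the control arrays against 0.23, 0.16 and 0.24 in the knockdown arrays. The groups were apart, with a change of 0.49 ± 0.044 log2 (SE, adjusted p = 8.22e-05 in limma, 0.025 with scaling to the spike-ins), and 3 of 4 probe sets passed. SLC38A9 (Entrez Gene 153129), the lysosomal arginine sensor that signals to mTORC1, rose by 0.41 ± 0.044 (SE, adjusted p = 0.000202 in limma, -0.058 with scaling to the spike-ins). Its 3 probe sets were alike (0.36 to 0.48), and its arrays read -0.27, -0.25 and -0.15 against 0.15, 0.18 and 0.23. SLC38A10, a related gene that is not counted as lysosomal here, fell by 0.19 as a gene, but its 2 probe sets passed in opposite directions, at -0.55 and 0.18, so the gene value averages unlike signals.

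SLC36A1 and SLC36A4 encode amino acid carriers of the SLC36 family, of which SLC36A1 is proton-coupled and known from the lysosomal membrane and the gut. SLC36A1 (Entrez Gene 206358) rose by 0.45 ± 0.050 log2 (SE, adjusted p = 0.00026 in limma, -0.017 with scaling to the spike-ins). Its values went from -0.26, -0.15 and -0.32 in the control arrays to 0.25, 0.18 and 0.17 with the SHCBP1 shRNA. The groups did not overlap, yet the 6 probe sets ranged from 0.060 to 1.32, 3 of them past the threshold, and the highest has a name ending in _s_at, which Affymetrix uses for probes shared between transcripts. Without its _s_at and _x_at probe sets the gene value was 0.30 (adjusted p = 0.00598 in limma). SLC36A4 rose by 0.20 (adjusted p = 0.0162 in limma, -0.27 with scaling to the spike-ins), and lost that call without its _s_at and _x_at probe sets (0.13, adjusted p = 0.259 in limma) and without control replicate 1 or 2 or SHCBP1 shRNA replicate 3 (adjusted p 0.0537 to 0.0564 in limma).

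The facilitators, which let amino acids run down their gradient, held the largest fall of all 35 genes. SLC43A1 (Entrez Gene 8501), a sodium-independent carrier of leucine and other branched-chain amino acids, had 0.66, 0.61 and 0.66 in the control arrays against -0.80, -0.63 and -0.61 in the knockdown arrays. Replicate 1 of the SHCBP1 shRNA lay lowest, and no array of one group came near the other. The change was -1.32 ± 0.056 log2 (SE, 2.50-fold lower, adjusted p = 2.36e-06 in limma), 55 genes had a lower value, and the result rests on 1 probe set. Its relative SLC43A2 was at 0.070 (interval -0.015 to 0.16) and passed only without its _s_at and _x_at probe sets (0.16, adjusted p = 0.0202 in limma). SLC43A3, known mainly as a carrier of purine bases, was at -0.088 (interval -0.22 to 0.040), and a probe set it shares with PRG2 in the annotation, left out of the gene value, gave -0.034 ± 0.093 (SE). SLC16A10, a carrier of aromatic amino acids, rose by 0.29 ± 0.049 (SE, adjusted p = 0.0022 in limma, -0.18 with scaling to the spike-ins), with -0.18, -0.037 and -0.064 in the control arrays against 0.26, 0.16 and 0.17 in the knockdown arrays. SLC25A15, the mitochondrial ornithine carrier of the urea cycle, fell by 0.17 ± 0.035 (SE, adjusted p = 0.00561 in limma), with 0.11, 0.069 and 0.13 against -0.068, -0.094 and -0.037, and all 3 of its probe sets, whose names end in _s_at, were lower.

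At the level of single probe sets, 41 of the 115 fell, 24 rose and 50 did not pass, where 18.2% of all probe sets with 1 symbol fell and 20.2% rose. Between 1 and 7 probe sets measured a gene. Of the 20 genes past the threshold with more than 1 probe set, 17 had all probe sets on the same side of 0 and 3 did not (SLC7A2, SLC6A6 and SLC38A10). Probe sets past the threshold in opposite directions were seen for 2 genes, SLC6A6 and SLC38A10.

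**Figure D3:**
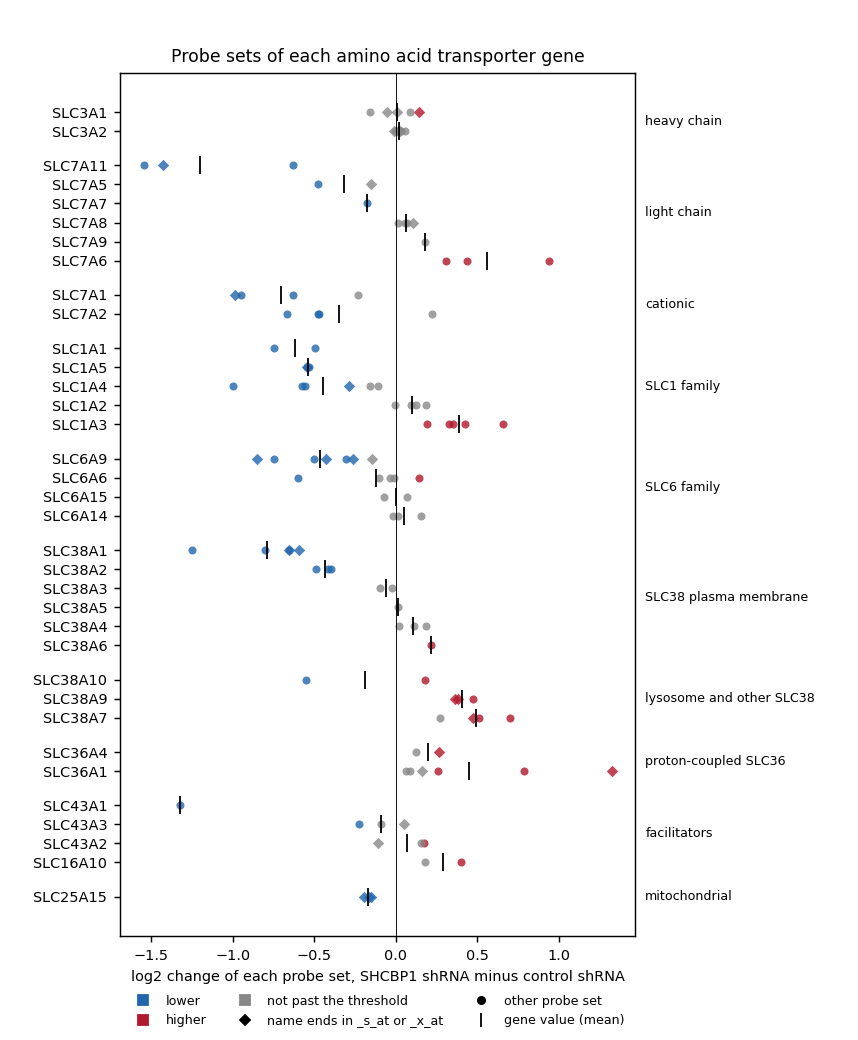
Log2 change of each of the 115 probe sets (x axis, SHCBP1 shRNA minus control shRNA) beside the gene value, their mean (black tick); diamonds are probe sets whose names end in _s_at or _x_at. The 7 probe sets of SLC3A2 lie within -0.013 to 0.057, those of SLC36A1 spread from 0.060 to 1.32, and the 2 of SLC38A10 lie on opposite sides of 0.

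Genes of the amino acid response, the ATF4 program that is known to drive many of these carriers, were mostly lower. Of 25 listed, 23 were tested, 19 fell and 2 rose (0 with scaling to the spike-ins), with a median of -0.57 log2 against 0.022 over all genes. In share, 82.6% fell against 19.0% of all genes, and 8.70% rose against 22.0%. The serine synthesis enzymes PSAT1 and PHGDH fell by 1.99 ± 0.030 and 0.93 ± 0.038 (SE). PCK2, a mitochondrial enzyme that makes phosphoenolpyruvate, fell by 1.62 ± 0.040, asparagine synthetase (ASNS) by 1.15 ± 0.031 and SHMT2, which feeds one-carbon units from serine, by 1.003 ± 0.035 (SE). ATF4 itself, measured by 1 probe set and named here after its value was seen, had 0.22, 0.16 and 0.18 in the control arrays against -0.20, -0.18 and -0.16 in the knockdown arrays, a change of -0.37 ± 0.033 (SE, adjusted p = 7.67e-05 in limma). Its groups did not overlap. The falls of this pathway were already known when the transporters were chosen and lend them no independent support.

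Genes through which mTORC1 reads amino acids moved in both directions. Of 30 listed, 29 were tested, 11 rose and 7 fell (1 and 24 with scaling to the spike-ins), with a median of 0.041. In share, 37.9% rose against 22.0% of all genes, and 24.1% fell against 19.0%, so the share that fell was near the background. FLCN, which acts on the RagC and RagD GTPases, rose by 0.80 ± 0.035 (SE, 0.34 with scaling to the spike-ins). LAMTOR4 and LAMTOR5, subunits of the complex that anchors the Rag GTPases to the lysosome beside SLC38A9, rose by 0.49 ± 0.032 and 0.40 ± 0.047 (SE, 0.024 and -0.060 with that scaling). The leucine sensor and ATF4 target SESN2 fell by 0.89 ± 0.045, and SEC13, also a coat protein of vesicles and of the nuclear pore, by 0.77 ± 0.035 (SE), with probe sets from -1.09 to 0.11.

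Downstream of the carriers, genes of cystine use and glutathione gave 3 rises and 2 falls among 10 tested of 12 listed (0 and 8 with scaling to the spike-ins), shares near the 22.0% and 19.0% of all genes that rose and fell. CHAC1, which degrades glutathione and is an ATF4 target, fell by 0.82 ± 0.044, and GCLC, the catalytic subunit of the first step of glutathione synthesis, by 0.34 ± 0.042 (SE). TXNRD1, which reduces thioredoxin, rose by 0.50 ± 0.031, GGCT by 0.46 ± 0.034 and GPX4, which detoxifies lipid peroxides, by 0.27 ± 0.034 (SE), against 0.039, -0.0072 and -0.19 with scaling to the spike-ins. Of genes that use or make glutamine and glutamate, 9 of 13 listed were tested, 5 fell and 1 rose (9 and 0 with scaling to the spike-ins), with a median of -0.26. That is 55.6% lower and 11.1% higher, against 19.0% and 22.0% of all genes. Besides ASNS the falls were GLUD1, glutamate dehydrogenase (-0.69 ± 0.040, SE), GFPT1, the first enzyme of hexosamine synthesis (-0.46 ± 0.032), the transaminase GOT1 (-0.43 ± 0.036) and PPAT of purine synthesis (-0.26 ± 0.040).

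**Figure D4:**
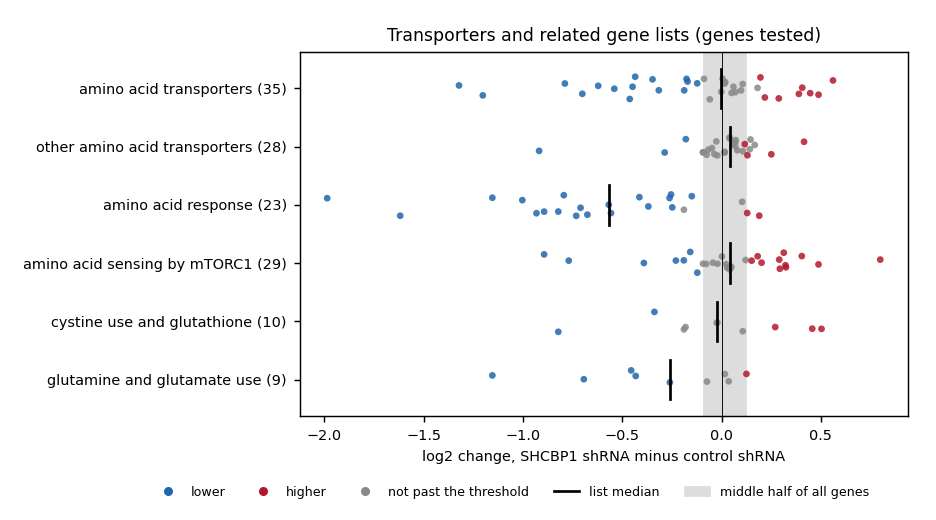
Log2 change (x axis) of each gene tested in the transporter list and in 5 related lists, with the list median as a black bar and the span between the quartiles of all genes tested in grey; vertical scatter is for display. The amino acid response list lies mostly to the left (median -0.57), as do 6 of the 9 genes of glutamine and glutamate use (median -0.26), while the 35 transporters (median -0.0017) spread to both sides.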

How the data were processed

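RNA of 6 samples, 3 per group, was measured on Affymetrix arrays, from biotin-labelled cRNA made from 6 µg of total RNA per the labels' protocols. The authors made the values with RMA, per the submitters' processing notes. For each probe set, the deposited values are 1 log2 number per array. The median of each probe set over the arrays is 0, so values were centred before deposit. The sources used here do not state that step, the log base (taken as log2, the scale of RMA) or software versions. Quantile normalization within RMA removes any shift common to all genes.

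Of 49395 probe sets, 102 are Affymetrix controls, 44988 have 1 symbol, 1832 have several and 2473 are unnamed here. The mean of the 1-symbol probe sets gave 18132 genes, with no filter on dim genes, because centred values hold no brightness. For the same reason the planned check of cell type markers was not run. Symbols were checked by Entrez number against RefSeq (GRCh38.p14), 27 probe sets had no match and 0 names changed. Groups were compared without pairing by limma 3.58.1 (lmFit, then eBayes) under R 4.3.3. P-values were adjusted by Benjamini and Hochberg's method across the 18132 genes (threshold 0.05). Probe sets had a fit of their own. Errors are moderated standard errors, those of control probe sets standard errors of the difference of means. The scripts were tested on simulated data. The number of arrays limits the precision.

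Members, gene lists and tests were chosen with earlier results of these data known, and the motifs after the values were seen. The text names all members and, per list, up to 5 genes with the largest changes past the threshold, and ATF4 and GLUL outside that rule, chosen after their values were seen. The 95 list genes tested of 103 hold 0 members, and 6 listed genes stand in more than 1 list. Deviations of same-numbered arrays correlated at 0.018, -0.046 and 0.067 and so gave no sign of pairing by replicate number. No correlation was computed between different-numbered arrays, so these values cannot settle whether samples were paired. Differences between arrays of 1 group had an SD of 0.13 to 0.14, against 0.35 between groups, so no array repeated another. Alternatives were 3 other scalings, array weights, robust moderation, the replicate block, other choices of probe sets and leaving out each array.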

Additional observations from a re-analysis of the deposited data

How the results depend on the processing

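Of the 15 transporters that fell, 13 kept direction and call under all alternatives run for them (SLC6A6 and SLC7A7 did not), and of the 8 that rose, 6 did so under all but scaling to the spike-ins (SLC36A4 and SLC38A6 did not). Leaving out 1 array at a time gave 6 to 9 rises and 13 to 15 falls, a median change of -0.047 to 0.0080 (-0.047 without control replicate 3) and -1.59 to -1.47 for SHCBP1. With the replicate block the counts were 8 and 15, the 23 genes being those called without it, and the median was -0.0017; it changed no call of a transporter. The filter on dim probe sets was not run, since centred values hold no brightness. Each probe set on its own gave at least 1 rise in 12 genes and at least 1 fall in 16.

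Scaling to the poly-A spike-ins gave a median of -0.47 over the 35 transporters (all genes -0.44). It gave 0 rises and 30 falls among them, against 363 and 16515 among all 18132 genes. With it these transporters changed sign: SLC1A2 (-0.37), SLC1A3 (-0.074), SLC3A1 (-0.46), SLC3A2 (-0.45), SLC6A14 (-0.41), SLC7A8 (-0.40), SLC7A9 (-0.28), SLC16A10 (-0.18), SLC36A1 (-0.017), SLC36A4 (-0.27), SLC38A4 (-0.36), SLC38A5 (-0.45), SLC38A6 (-0.25), SLC38A9 (-0.058) and SLC43A2 (-0.39). Of the 8 that rose with the deposited scaling, 3 passed the threshold as lower with this one. They were SLC16A10, SLC36A4 and SLC38A6 (adjusted p = 0.0387, 0.00129 and 0.0112 in limma). The shift follows from the scaling, which subtracts the same amount from every gene. Why the spike-ins differed was not tested.

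In the related lists, rises and falls with that scaling were 0 and 23 for the amino acid response, 1 and 24 for mTORC1 sensing, 0 and 8 for glutathione, 0 and 9 for glutamine use and 0 and 27 for other amino acid transporters. Of all 18132 genes, 363 rose and 16515 fell with it, so a fall of most genes in a list is the background there. The 1 rise in glutamine use was GLUL, at 0.13 (-0.34 with scaling to the spike-ins). This count went to 0 with array medians subtracted, the replicate block, or no probe sets ending in _s_at or _x_at. Other amino acid transporters gave 2 rises with array medians subtracted, and 2 rises and 1 fall without such probe sets. Without 1 array, rises ran from 1 to 2 for the amino acid response, 0 to 1 for glutamine use and 2 to 3 for other transporters. Beyond the construction of each alternative, the cause was not tested.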

Other observations

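Of 29 further amino acid transporter genes outside the 35, 28 were tested. Of these, 4 rose and 3 fell (0 and 27 with scaling to the spike-ins). These shares of 14.3% and 10.7% lay below the 22.0% and 19.0% of all genes that rose and fell. The proline carrier SLC6A20 fell most, by 0.92 ± 0.086 log2 (SE, adjusted p = 9.94e-05 in limma), with 0.37, 0.40 and 0.51 in the control arrays against -0.68, -0.46 and -0.34 in the knockdown arrays. The groups did not overlap, and both probe sets were lower. SLC66A1, which exports cationic amino acids from lysosomes, fell by 0.29 ± 0.041 (SE), where SLC38A7, SLC38A9 and SLC36A1 rose with the deposited scaling (0.025, -0.058 and -0.017 with scaling to the spike-ins). SLC25A38, a mitochondrial glycine carrier, was at 0.42 ± 0.045 (SE, -0.048 with scaling to the spike-ins), and the serine carrier of mitochondria, SFXN1, at -0.18 ± 0.033. SLC6A18 was at 0.25 ± 0.052 (SE, -0.21 with that scaling), from 1 probe set.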
